A study of Mus musculus with 13 samples.

Results

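Genes of chromatin-modifying and remodelling enzymes were followed through cultured mouse oligodendrocyte-lineage cells with and without Eed. The set was chosen by symbol alone: it holds every gene of the count table whose name begins with Kdm, Kmt, Hdac, Smarc, Chd, Dnmt, Setd, Brd, Kat or Asxl, with a number where the family uses one, together with Sirt1 to Sirt7 and Tet1 to Tet3. It came to 100 of the 13549 genes of the table. Of 104 protein-coding RefSeq symbols that match the naming rule, 99 had a row, and the remaining member, Chd3os, is an RNA transcribed opposite to the remodeller gene Chd3. No expression value was used to choose the members. All 100 passed the filter on low counts, as did every other gene of the table. The lowest count of any member in any library was 60 reads.

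Chromatin enzymes add or remove small chemical groups on histones and DNA or use ATP to move nucleosomes, and so set which genes can be read. Polycomb repressive complex 2 (PRC2), of which Eed is a core subunit, methylates lysine 27 of histone H3 and keeps its targets silent, and the demethylases encoded by Kdm6a (UTX) and Kdm6b (JMJD3) take that mark off again. In the oligodendrocyte lineage, the histone deacetylases Hdac1 and Hdac2 and the remodelling ATPase Smarca4 (BRG1) are known to be needed for the step from precursor to myelin-forming cell.

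RNA was sequenced from oligodendrocyte precursor cells (OPCs) of C57BL/6 mouse brain grown with PDGF and NT-3, and from immature oligodendrocytes (iOLs) after 2 days with thyroid hormone (T3) and without PDGF. Both stages were studied in control cells and in cells of Eed conditional knockout (cKO) mice. There were 2 control OPC, 3 cKO OPC, 2 control iOL and 2 cKO iOL libraries. OPC control replicate 1 and OPC cKO replicates 1 and 2 came from postnatal day 7 (P7) mice and the other 6 libraries from day 6 (P6). The groups follow the sample titles, because the genotype entry of the labels reads the same in all 9 libraries. The Cre driver, the deleted exons and any pooling of mice are not given in the sources used here, nor is it said whether replicates were separate animals or cultures, so p-values measure the spread between these libraries. The immunoprecipitated chromatin of the series was not analysed here.

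Total counts lay between 17417529 and 19680398 per library, and the members took 1.01% to 1.33% of them. Levels are given as CPM, counts scaled to the depth of the library with TMM factors, and are compared only within a gene. Eed was lower in each cKO library (11.8 to 14.6 CPM) than in each control library (16.8 to 21.7 CPM), and its difference did not pass the test at either stage (edgeR adjusted p = 0.0847 in OPCs and 0.0973 in iOLs). The 7 OPC markers summed to 14290 to 18348 CPM in OPC libraries and to 4973 to 8426 CPM in iOL libraries. The 8 oligodendrocyte markers summed to 6472 and 2197 CPM in control OPCs, to 2003, 2770 and 1018 CPM in cKO OPCs, to 4991 and 5145 CPM in control iOLs and to 1083 and 1528 CPM in cKO iOLs, so OPC control replicate 1 was above both control iOL libraries. The 5 astrocyte markers, none of them at 0, summed to 1817 to 2321 CPM in the P7 and 4980 and 6575 CPM in the P6 OPC libraries. In iOLs they summed to 5792 to 6006 CPM in controls and 8739 to 10652 CPM in cKO cells. Most of the iOL sums was Gfap, with means of 715 CPM in control OPCs, 3717 CPM in control iOLs and 7027 CPM in cKO iOLs. Of the other markers, the mean of Aqp4 was higher in control iOLs than in control OPCs, while Slc1a3 (1928 to 660 CPM), Aldh1l1 (428 to 277 CPM) and Aldoc (636 to 268 CPM) were lower. The 5 neuronal markers summed to 121 to 285 CPM, while the measured microglial marker P2ry12 and endothelial marker Flt1 stayed at or under 5.98 CPM. The other listed markers of these 2 cell types had no row. Flt1 differed with genotype, at 0.351 and 0.158 CPM in control OPCs and 4.61, 5.98 and 5.16 CPM in cKO OPCs (edgeR adjusted p = 0.000469). It also passed the test in iOLs (edgeR adjusted p = 0.0140). OPC control replicate 1 stood apart from the other libraries, with a Lars2 level of 5380 CPM (at most 381 CPM elsewhere), a Mir6236 level of 4456 CPM (at most 172 CPM elsewhere) and 3467 CPM of the myelin gene Mbp, which stood at 1120 CPM in the other control OPC library. Where a call rests on that library, the result is therefore also given without it.

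Members that passed the test between cKO and control cells were Kdm5b in OPCs and Sirt2, Chd5 and Kmt5a in iOLs, and the promoter of each is shown because PRC2 is known to gather at promoters dense in the dinucleotide CG. The windows run from 250 bases before to 50 bases after an annotated start (the first listed where a gene has several), from RefSeq on GRCm38.p6, and all lie on the plus strand. They span chr7:28766502-28766801 for Sirt2, chr4:152338401-152338700 for Chd5, chr5:124439680-124439979 for Kmt5a and chr1:134559928-134560227 for Kdm5b. Capitals mark each CG.
Sirt2: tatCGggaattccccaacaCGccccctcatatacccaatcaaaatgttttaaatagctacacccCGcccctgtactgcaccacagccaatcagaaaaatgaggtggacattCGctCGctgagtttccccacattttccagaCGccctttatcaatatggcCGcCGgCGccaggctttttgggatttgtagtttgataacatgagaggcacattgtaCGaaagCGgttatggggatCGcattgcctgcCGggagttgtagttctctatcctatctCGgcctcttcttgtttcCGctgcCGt
Chd5: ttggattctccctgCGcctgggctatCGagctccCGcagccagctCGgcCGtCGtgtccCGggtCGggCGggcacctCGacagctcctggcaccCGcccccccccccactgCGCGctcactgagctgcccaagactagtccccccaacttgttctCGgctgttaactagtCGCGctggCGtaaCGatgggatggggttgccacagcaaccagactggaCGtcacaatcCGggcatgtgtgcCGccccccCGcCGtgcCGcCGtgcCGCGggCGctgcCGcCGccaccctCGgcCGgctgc
Kmt5a: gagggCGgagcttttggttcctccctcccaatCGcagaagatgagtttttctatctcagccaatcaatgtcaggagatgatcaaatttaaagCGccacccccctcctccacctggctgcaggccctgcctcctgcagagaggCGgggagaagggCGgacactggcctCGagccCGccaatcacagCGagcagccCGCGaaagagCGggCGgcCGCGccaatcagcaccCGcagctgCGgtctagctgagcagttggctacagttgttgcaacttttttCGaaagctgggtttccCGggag
Kdm5b: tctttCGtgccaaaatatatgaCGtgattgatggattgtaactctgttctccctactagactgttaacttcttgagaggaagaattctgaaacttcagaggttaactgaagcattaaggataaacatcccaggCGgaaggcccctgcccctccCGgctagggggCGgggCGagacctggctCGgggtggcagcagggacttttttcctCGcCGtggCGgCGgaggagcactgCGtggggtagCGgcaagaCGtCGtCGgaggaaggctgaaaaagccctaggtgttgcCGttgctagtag
Chd5 had the most CG of the 4, with 32, a number reached by 9.24% of all 27025 RefSeq promoter windows of the same length, 1 per gene symbol. Kmt5a had 18 (reached by 30.1% of windows), Kdm5b 17 (31.9%) and Sirt2 16 (33.5%). The 79 members with a window had a median of 23 CG, against 7 over all windows. The nuclear receptor motif AGGTCA, searched on both strands as AGGTCA or TGACCT, with a window counted once however many matches it held, stands in none of these 4 windows, in 8.86% of the members' windows and in 16% of all windows. Kdm6a had 21 CG and 1 such match, and Kdm6b had no window to read.

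Among the H3K27 demethylase genes, looked at first because they act opposite to PRC2, neither passed the test between cKO and control cells at either stage. Kdm6a (chromosome X, 18160862 to 18279936, GRCm38.p6) stood at 48.2 and 62.3 CPM in control OPCs and at 54.6, 87.0 and 54.7 CPM in cKO OPCs. In iOLs it stood at 56.4 and 60.9 CPM in controls and at 73.9 and 53.6 CPM in cKO cells. The groups overlapped at both stages, and only OPC cKO replicate 2 and iOL cKO replicate 1 lay clearly above the others. The log2 fold change of cKO over control was 0.24 ± 0.23 (SE) in OPCs and 0.12 ± 0.25 in iOLs (edgeR's quasi-likelihood test with Benjamini-Hochberg adjustment over all genes, adjusted p = 0.518 and 0.852). Between stages it was 0.09 ± 0.25 in controls and −0.04 ± 0.23 in cKO cells (edgeR adjusted p = 0.805 and 0.908). No alternative processing called Kdm6a in any comparison.

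Kdm6a lies on the X chromosome, and the libraries differed in Xist, the RNA that coats the inactive X. Xist was at 1023 to 2215 CPM in both control OPC libraries, in OPC cKO replicates 2 and 3 and in iOL cKO replicate 1. It was at 0.868 CPM in OPC cKO replicate 1, at 34.3 and 0.555 CPM in control iOLs and at 0.635 CPM in iOL cKO replicate 2. The highest Kdm6a level of the cKO OPCs and of the cKO iOLs thus fell in the library with the most Xist of its group, although OPC cKO replicate 3 and both control OPC libraries had high Xist with 48.2 to 62.3 CPM of Kdm6a. Kdm5c, a second X-linked demethylase gene of H3K4, stood at 145 and 205 CPM in control OPCs, at 142, 193 and 205 CPM in cKO OPCs, at 239 and 219 CPM in control iOLs and at 290 and 210 CPM in cKO iOLs. Within each cKO group its lowest value was in a library with almost no Xist. In controls, both OPC libraries had high Xist and both iOL libraries had little, so stage and Xist state cannot be told apart there for X-linked genes. The labels give no sex, and the part of Xist state in the values of Kdm6a and Kdm5c was not tested.

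**Figure D1:**
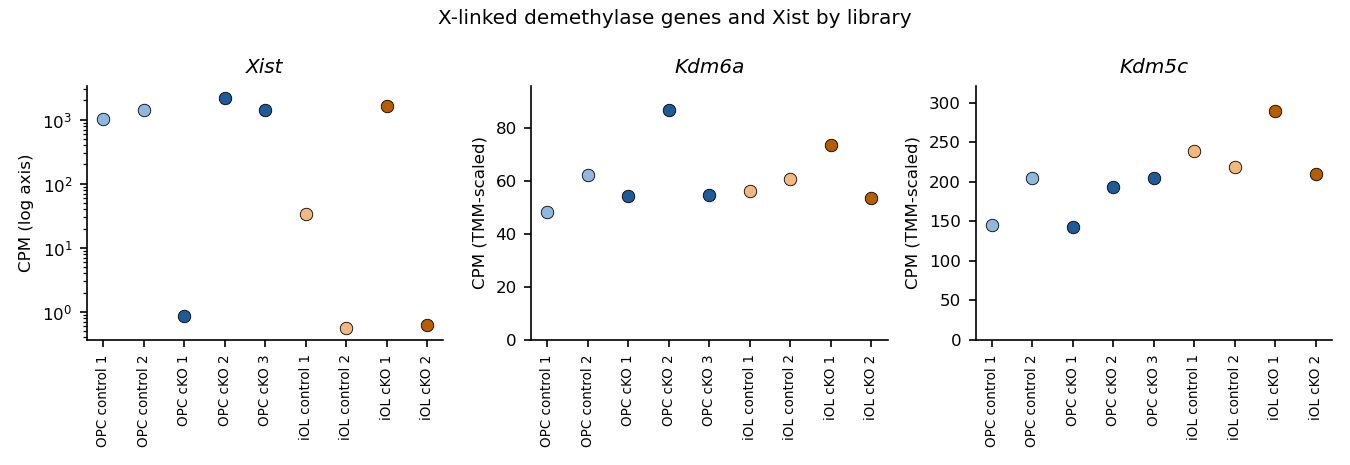
CPM of Xist (log axis), Kdm6a and Kdm5c (linear axes from 0) in each of the 9 libraries, with 1 point per library coloured by group. Xist is below 35 CPM in OPC cKO 1, iOL control 1 and 2 and iOL cKO 2, and Kdm6a reaches 87.0 CPM in OPC cKO 2 and 73.9 CPM in iOL cKO 1.

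Kdm6b (chromosome 11, 69398508 to 69420367, GRCm38.p6) rose during differentiation of control cells. It stood at 106 and 109 CPM before differentiation and at 180 and 155 CPM in control iOLs, so the stages did not overlap. The log2 fold change was 0.64 ± 0.16 (edgeR adjusted p = 0.0107). It was called under 15 of 16 alternatives and lost without iOL control replicate 1, at a log2 fold change of 0.53 ± 0.21 (edgeR adjusted p = 0.0848).

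In cKO cells Kdm6b stood at 158, 131 and 110 CPM in OPCs and at 150 and 146 CPM in iOLs, so the iOL values lay inside the OPC range. Its differentiation change there was 0.15 ± 0.15 on the log2 scale (edgeR adjusted p = 0.452). The difference between the genotypes in that change was −0.49 ± 0.22 and was not called (edgeR adjusted p = 0.277, from 0.0671 to 0.589 over the alternatives). Every cKO OPC library was above both control OPC libraries, by as little as 110 against 109 CPM, and both cKO iOL libraries were below both control iOL libraries. Neither difference passed the test, at 0.31 ± 0.15 in OPCs and −0.18 ± 0.16 in iOLs (edgeR adjusted p = 0.218 and 0.608). By day, the OPC difference of Kdm6b was 0.45 on P7 and 0.02 on P6 (log2), and that of Kdm6a was 0.51 on P7 and −0.19 on P6, each day with a lone control library and so with no test.

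**Figure D2:**
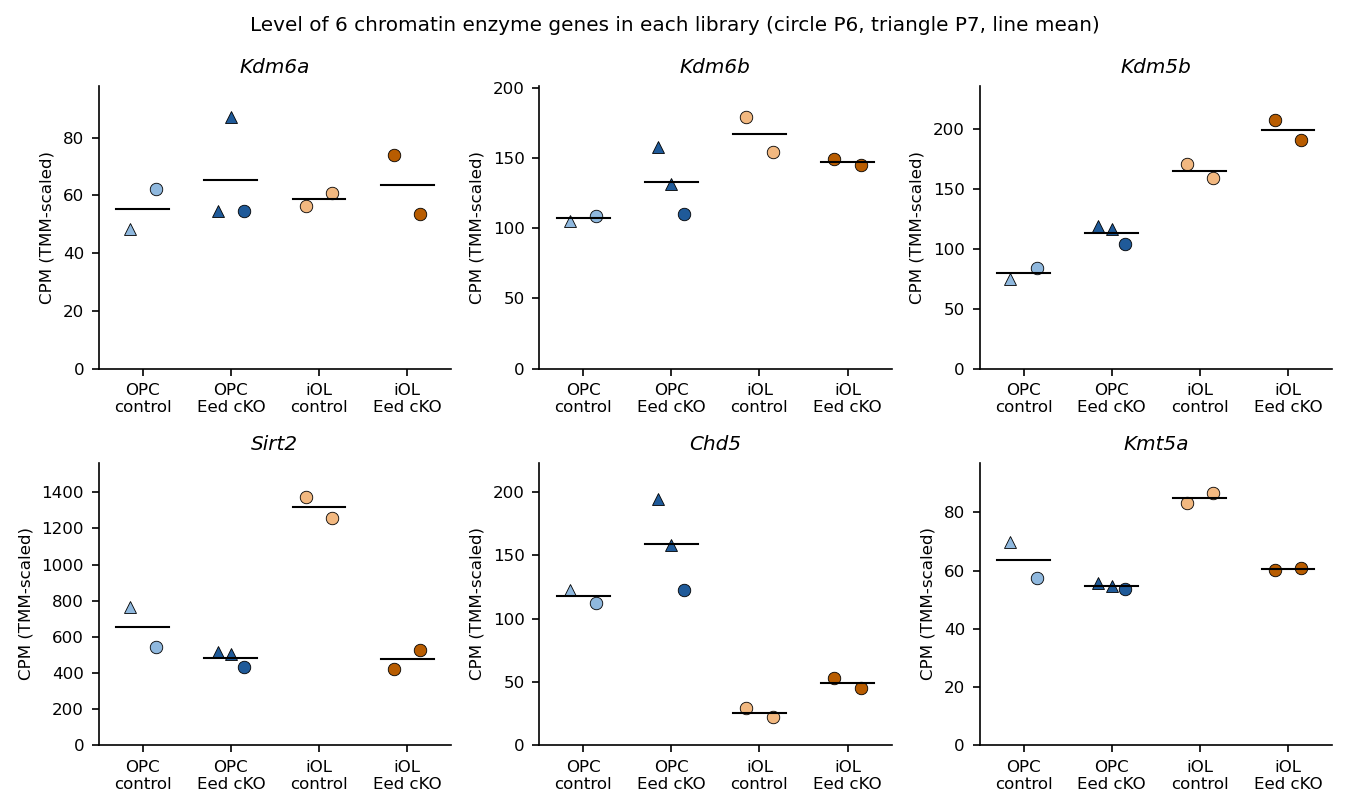
CPM of 6 chromatin enzyme genes in each library (circle P6, triangle P7, line the group mean, y axes from 0). Kdm6a groups overlap at both stages, Kdm6b and Kdm5b are higher in control iOLs than in control OPCs, and Sirt2 in iOLs is at 1376 and 1258 CPM with Eed intact and at 421 and 528 CPM in cKO cells.

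The comparison of cKO with control OPCs asks which of these enzymes differ with genotype in proliferating precursors. A single member, Kdm5b, which encodes an eraser of H3K4 methylation, rose, and none fell. Over all genes tested, 2.94% were called higher and 0.303% lower, so 1 and 0 of 100 members are no more than the table as a whole gives. At an unadjusted p under 0.05, 17 members were higher and 5 lower, beside 13.2% and 12.5% of all genes. The median log2 fold change was 0.16 over the members and −0.02 over all genes, and 68 members were above 0, as were 47.3% of all genes. Groups without overlap were common, in 24 members higher and 12 lower, and in 2289 genes higher and 2353 lower of all 13549.

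Kdm5b stood at 74.7 and 84.1 CPM in control OPCs and at 119, 116 and 104 CPM in cKO OPCs. Every cKO library was above every control library. The log2 fold change was 0.51 ± 0.11, a ratio of 1.42 (edgeR adjusted p = 0.0430). The call was lost under 8 of 16 alternatives, with adjusted p between 0.00296 and 0.184 over all of them, and without OPC control replicate 1 the change was 0.43 ± 0.11 (edgeR adjusted p = 0.137). In iOLs Kdm5b stood at 170 and 159 CPM in controls and at 207 and 190 CPM in cKO cells, again without overlap, but its difference of 0.27 ± 0.12 did not pass (edgeR adjusted p = 0.209).

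Other members with large OPC differences did not pass the test. Tet2 and Tet3, which encode oxidases of methylated cytosine, differed by 0.69 ± 0.21 and 0.65 ± 0.17 (edgeR adjusted p = 0.114 and 0.0830). Tet3 stood at 99.6 and 144 CPM in controls and at 212, 201 and 160 CPM in cKO OPCs, with no overlap. Kmt2e, grouped by name with the H3K4 methyltransferases, stood at 77.9 and 93.6 CPM against 150, 155 and 96.7 CPM and differed by 0.64 ± 0.19 (edgeR adjusted p = 0.110). Kdm7a, a demethylase gene of H3K9 and H3K27, stood at 31.7 and 36.1 CPM against 56.5, 55.2 and 40.4 CPM and differed by 0.58 ± 0.16 (edgeR adjusted p = 0.0845). In each of these genes cKO replicate 3, the P6 library, was the lowest of its group. In the opposite direction Kdm8, which encodes a JmjC-domain protein, stood at 8.03 and 8.11 CPM in controls and at 5.75, 4.95 and 4.90 CPM in cKO OPCs, a difference of −0.63 ± 0.18 (edgeR adjusted p = 0.0963). DESeq2 called 6 members higher (Kdm5a, Kdm5b, Kdm7a, Kmt2e, Tet2 and Tet3), beside 5.66% of all genes, and none lower, beside 1.76%.

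By family, all 8 H3K4 methyltransferase genes, all 3 ASXL genes (partners of the histone H2A deubiquitinase Bap1), all 3 TET genes and all 3 DNA methyltransferase genes had OPC differences above 0, with family medians of 0.30, 0.57, 0.65 and 0.19, and none of these 17 genes passed. All 4 class I histone deacetylase genes (Hdac1, Hdac2, Hdac3, Hdac8) and 6 of 7 sirtuin genes were below 0, with medians of −0.24 and −0.13, and none of them passed either. The H3K4 methyltransferase and ASXL directions did not hold on both days. On P7 all 17 genes were above 0, while on P6 this was so of 1 of 8 H3K4 methyltransferase genes, none of the 3 ASXL genes, 2 of 3 DNA methyltransferase genes and all 3 TET genes, with P6 family medians of −0.06, −0.05, 0.10 and 0.05. Class I deacetylase genes were below 0 in 4 of 4 cases on P7 and 3 of 4 on P6, and sirtuin genes in 6 of 7 on both days. The 4 class IIa deacetylase genes were all above 0 too, with a median of 0.15, and none passed. Of these, 4 were above 0 on P7 and 2 on P6.

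The OPC differences were not alike on the 2 postnatal days. On P7 (2 cKO libraries against OPC control replicate 1), the members' median was 0.24 with 70 above 0. On P6 (1 against 1 library), it was −0.00084 with 49 above 0. Over all genes the medians were −0.0072 and −0.012, with 49.6% and 46.7% above 0. The summed astrocyte markers also split by day, at 2321 CPM in the control and 1817 and 1935 CPM in the cKO libraries on P7 against 6575 and 4980 CPM on P6, and their part in the day difference was not tested. Tet3 differed by 1.05 on P7 and 0.15 on P6, Tet2 by 0.99 and 0.05, Kmt2e by 0.97 and 0.05 and Kdm7a by 0.81 and 0.16. Kdm5b differed by 0.65 and 0.31. The P7 control, OPC control replicate 1, is the library that stands apart. Its log2 difference from OPC control replicate 2, taken gene by gene, had a median of −0.15 over the members and 0.03 over all genes. Without OPC control replicate 1, no member was called (1.56% of all genes were). Without OPC control replicate 2, which leaves replicate 1 as the lone control, 22 members were called higher and 7 lower, beside 29% of all genes in either direction. Day and this library cannot be told apart in the P7 values.

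**Figure D3:**
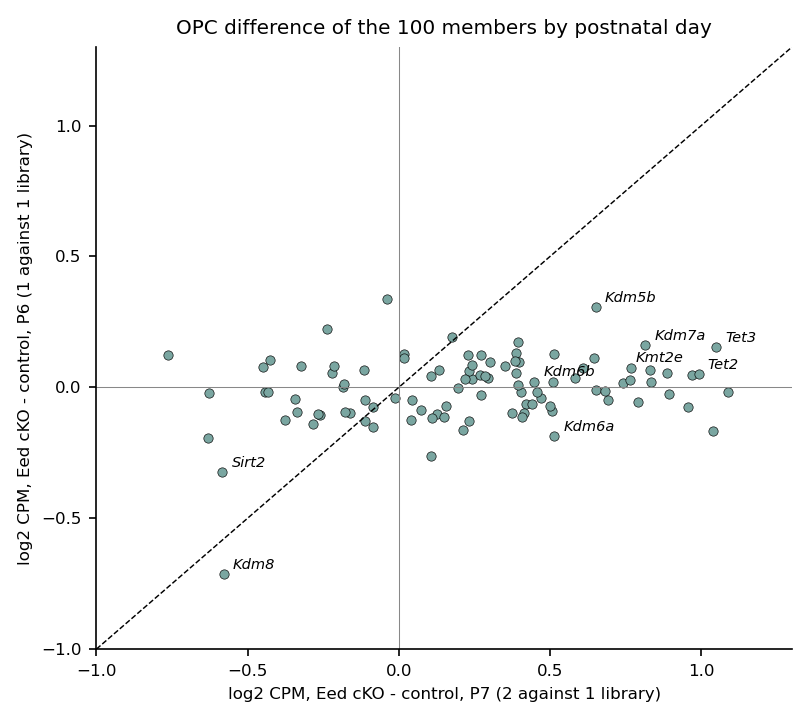
OPC difference (log2 CPM of cKO minus control) of the 100 members on P7 (x axis, 2 against 1 library) and on P6 (y axis, 1 against 1 library), 1 point per gene, with a dashed line where both days are equal. Most points with large P7 differences lie near 0 on P6, while Kdm5b (0.65 and 0.31), Sirt2 and Kdm8 lie away from 0 on both days in the same direction.

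The comparison of cKO with control iOLs asks which of them differ with genotype once differentiation has begun. Sirt2 and Kmt5a fell and Chd5 rose, and no other member passed. Over all genes 7.08% were called higher and 3.51% lower, so the members' 1 higher gene of 100 is below, and their 2 lower genes near, what all genes give. At an unadjusted p under 0.05 the counts were 7 higher and 9 lower, beside 14.6% and 8.61% of all genes. The members' median was −0.01 and that of all genes −0.004. With 2 libraries on each side, most genes had groups without overlap, 4556 higher and 4642 lower of 13549. Among the members these were 22 higher and 34 lower, so a lack of overlap in iOLs says little by itself.

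Sirt2 (chromosome 7, 28766752 to 28788665, GRCm38.p6) encodes an NAD-dependent deacetylase that is abundant in oligodendrocytes and acts on tubulin as well as histones. It stood at 1376 and 1258 CPM in control iOLs and at 421 and 528 CPM in cKO iOLs, with the groups far apart. The log2 fold change was −1.47 ± 0.21, a ratio of 2.77 in favour of controls (edgeR adjusted p = 0.00276). It was called under all 16 alternatives, with log2 fold changes between −1.65 and −1.32. In OPCs Sirt2 stood at 765 and 542 CPM in controls and at 516, 505 and 434 CPM in cKO cells, a difference of −0.43 ± 0.18 that did not pass (edgeR adjusted p = 0.180). The summed oligodendrocyte markers were 4991 and 5145 CPM in control iOLs and 1083 and 1528 CPM in cKO iOLs, with all 8 markers measured and none at 0. In OPCs the higher Sirt2 level of OPC control replicate 1 stood beside the highest marker sum, 6472 CPM. Both control iOL libraries had more Sirt2 than that library, at lower marker sums. The part of the share of such cells in the Sirt2 difference was not tested, and fewer cells of a type cannot be told from less RNA per cell in bulk samples.

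Chd5, a nucleosome remodeller gene best known from neurons, stood at 29.2 and 21.8 CPM in control iOLs and at 52.9 and 45.2 CPM in cKO iOLs. The groups did not overlap, and the log2 fold change was 0.94 ± 0.22, a ratio of 1.92 (edgeR adjusted p = 0.0257). Leaving out any of the 4 iOL libraries ended the call, with log2 fold changes of 0.75 to 1.17 (edgeR adjusted p = 0.0666 to 0.184). The summed neuronal markers were 159 and 165 CPM in control iOLs and 250 and 285 CPM in cKO iOLs, and their part in the Chd5 difference was not tested. In OPCs Chd5 stood at 123 and 112 CPM against 194, 158 and 123 CPM, a difference of 0.43 ± 0.20 that did not pass (edgeR adjusted p = 0.202).

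Kmt5a encodes the enzyme that adds the initial methyl group to histone H4 lysine 20. It stood at 83.1 and 86.7 CPM in control iOLs and at 60.2 and 60.8 CPM in cKO iOLs, so the 2 values of each group lay close together and the groups well apart. The log2 fold change was −0.49 ± 0.12 (edgeR adjusted p = 0.0325). The call was lost under 6 of 16 alternatives, among them the omission of any iOL library (edgeR adjusted p up to 0.191). In OPCs the levels were 69.7 and 57.3 CPM in controls and 55.8, 54.6 and 53.6 CPM in cKO cells.

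Further members differed between cKO and control iOLs without passing the test. Chd3, a remodeller subunit of the NuRD repressor complex, stood at 353 and 345 CPM in controls and at 244 and 253 CPM in cKO iOLs, a difference of −0.49 ± 0.15 (edgeR adjusted p = 0.0759). Hdac5, a class IIa deacetylase gene, stood at 55.1 and 58.0 CPM against 87.8 and 75.0 CPM and differed by 0.53 ± 0.15 (edgeR adjusted p = 0.0568). DESeq2 called 2 members higher, Chd5 and Hdac5, and 3 lower, Sirt2, Kmt5a and Chd3, beside 8.87% and 4.72% of all genes. All 4 class IIa deacetylase genes were above 0, with a median of 0.45, beside 49.5% of all genes above 0. They were also all above 0 in OPCs, with a median of 0.15. Hdac4 differed by 0.47 ± 0.15 in iOLs (edgeR adjusted p = 0.0737). The H3K4 methyltransferase, TET and ASXL genes, whose OPC differences were all above 0, had iOL medians of 0.01, −0.07 and −0.10. The 3 DNA methyltransferase genes, also all above 0 in OPCs, were all above 0 in iOLs too, with a median of 0.20, and none passed.

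**Figure D4:**
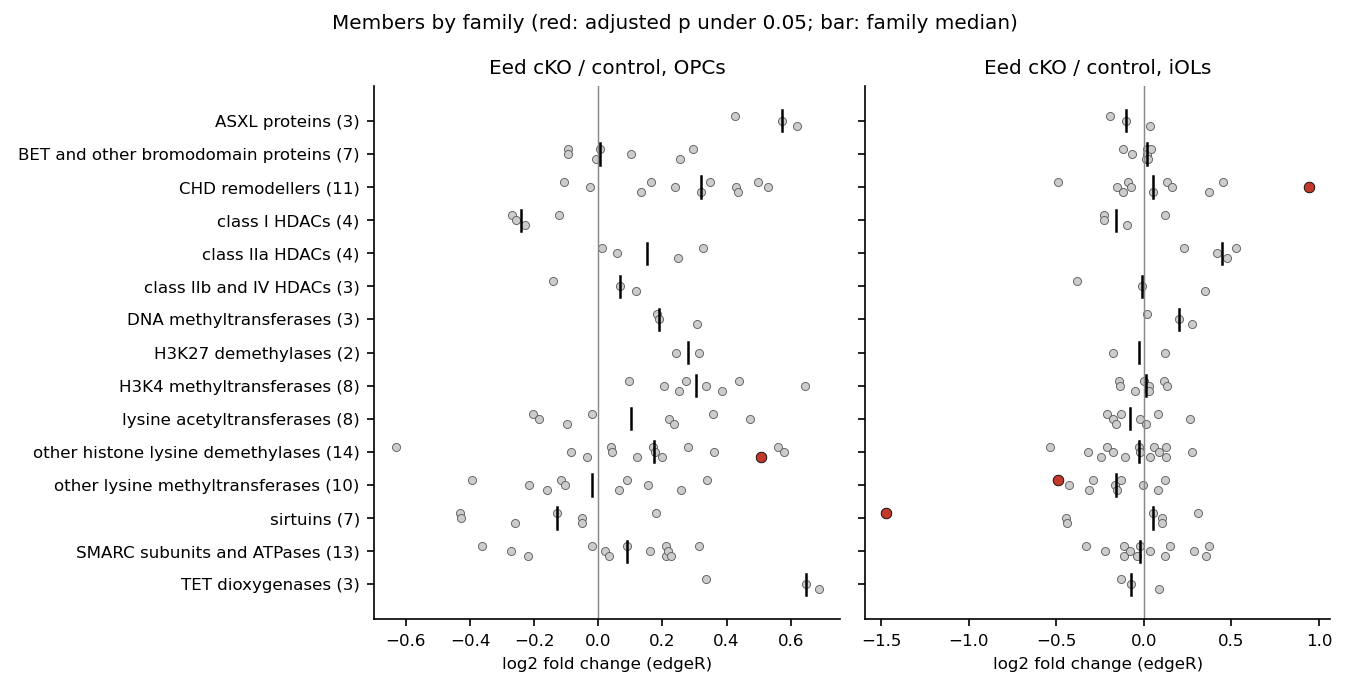
log2 fold change of Eed cKO over control for each of the 100 members, by family (number of genes in brackets), in OPCs on the left and iOLs on the right. Red points passed the test (Kdm5b in OPCs, Sirt2, Kmt5a and Chd5 in iOLs), bars mark family medians, and the x axes differ in range.

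Control iOLs were compared with control OPCs to give the normal differentiation change of these enzymes. Of 100 members 31 rose and 16 fell, beside 21.0% and 25.3% of all genes, so the share that rose was above and the share that fell below that of the table. The members' median was 0.21 and that of all genes −0.06. The other 53 did not pass. The stages also lay apart without overlap in most genes, 4647 higher and 5095 lower of all 13549, and in 53 members higher and 29 lower. Of the 8 genes grouped as H3K4 methyltransferases, 4 rose (Kmt2c, Kmt2d, Kmt2e and Setd7) and none fell. Kmt2e had the largest change of these, from 77.9 and 93.6 CPM to 180 and 178 CPM, a log2 fold change of 1.06 ± 0.21 (edgeR adjusted p = 0.00304). Setd2, which writes methylation of H3K36, rose from 101 and 106 CPM to 208 and 202 CPM, by 0.98 ± 0.13 (edgeR adjusted p = 0.000324). Kmt5a and Kmt5b, writers of H4K20 methylation, rose by 0.42 ± 0.12 and 0.52 ± 0.11.

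Of the 14 demethylase genes other than Kdm6a and Kdm6b, 8 rose and none fell. Kdm5b rose from 74.7 and 84.1 CPM to 170 and 159 CPM, by 1.05 ± 0.12 (edgeR adjusted p = 0.000147). Kdm7a rose from 31.7 and 36.1 CPM to 68.5 and 67.6 CPM, by 1.01 ± 0.17 (edgeR adjusted p = 0.00125). Kdm4a and Kdm4c, erasers of H3K9 and H3K36 methylation, rose by 0.79 ± 0.12 and 0.81 ± 0.15, and the H3K9 demethylase genes Kdm3a and Kdm3b by 0.43 ± 0.13 and 0.71 ± 0.17.

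Of the classical deacetylase genes more fell than rose. Hdac1, known to be needed for oligodendrocyte differentiation, rose from 90.7 and 73.4 CPM to 111 and 106 CPM (0.40 ± 0.13, edgeR adjusted p = 0.0306), and lost its call under 7 of 16 alternatives. Its partner Hdac2 stood at 170 and 118 CPM against 186 and 172 CPM and did not pass (edgeR adjusted p = 0.163). Of the other 9 classical deacetylase genes, 7 fell: Hdac3, Hdac5, Hdac6, Hdac7, Hdac8, Hdac10 and Hdac11. Their log2 fold changes lay between −0.74 (Hdac8) and −0.32 (Hdac3). Hdac6 and Hdac8 lie on the X chromosome, where Xist state and stage cannot be told apart in controls. Xist stood at 1023 and 1414 CPM in control OPCs and at 34.3 and 0.555 CPM in control iOLs. Of 16 alternatives, Hdac3 and Hdac7 lost their calls under 8, Hdac6 and Hdac11 under 7, Hdac10 under 3 and Hdac5 and Hdac8 under 1 each. Without OPC control replicate 2, Hdac6 was at −0.24 (edgeR adjusted p = 0.114), and without iOL control replicate 1, Hdac7 was at −0.27 (edgeR adjusted p = 0.291). Of the sirtuin genes Sirt2 rose by 1.01 ± 0.20, from 765 and 542 CPM to 1376 and 1258 CPM (edgeR adjusted p = 0.00322). The mitochondrial sirtuin gene Sirt3 fell by 0.56 on the log2 scale, from 21.0 and 23.6 CPM to 16.0 and 14.2 CPM (edgeR adjusted p = 0.0224).

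Remodeller genes moved in both directions. Of the CHD genes Chd3, Chd6, Chd8 and Chd9 rose, and Chd5 and Chd7 fell, as did Chd3os, for which reads of opposite strands may not have been separated. Chd5 had the largest change of any member, from 123 and 112 CPM to 29.2 and 21.8 CPM, by −2.21 ± 0.23 (edgeR adjusted p = 7.44e-05). Chd7, which cooperates with Sox10 in oligodendrocytes, fell from 307 and 265 CPM to 172 and 175 CPM, and Chd8 rose from 155 and 162 CPM to 272 and 257 CPM. Of 13 SMARC genes, which encode ATPases and subunits of SWI/SNF and related complexes, Smarca4, Smarcad1, Smarcd1 and Smarcd2 rose and Smarca2, Smarcb1 and Smarcd3 fell. Smarcb1 lost its call under 9 of 16 alternatives and moved from −0.44 to −0.17 without OPC control replicate 1 (edgeR adjusted p = 0.198), and Smarcd1 lost its call under 8, that one included (edgeR adjusted p = 0.0713). The alternative ATPase genes of SWI/SNF thus differed in direction, Smarca4 by 0.42 ± 0.13 (348 and 375 to 506 and 464 CPM) and Smarca2 by −0.58 ± 0.13 (184 and 178 to 119 and 123 CPM). So did the alternative subunit genes Smarcd2, by 0.69 ± 0.18, and Smarcd3, by −1.04 ± 0.15, which went from 111 and 84.1 CPM to 45.9 and 48.8 CPM.

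Among the rest, the acetyltransferase genes Kat2b and Kat6a rose and Kat2a fell, and the bromodomain gene Brd9 fell by 0.31 on the log2 scale. Of the enzymes of DNA methylation, Dnmt3a and Tet1 rose, by 0.52 ± 0.16 and 0.64 ± 0.21, and Dnmt1 did not pass (−0.29 ± 0.13). Without OPC control replicate 1, Dnmt3a was at 0.28 and no longer called (edgeR adjusted p = 0.0652), and Tet1 was at 0.31 (edgeR adjusted p = 0.0457). The number of members called was 43 without OPC control replicate 1 and 53 without OPC control replicate 2, beside 43.7% and 53.4% of all genes. It was 18 without iOL control replicate 1 and 21 without iOL control replicate 2, beside 29.9% and 30.1% of all genes. Of the 47 calls, 35 were kept without OPC control replicate 1 and 12 were lost: Asxl2, Brd9, Chd6, Chd9, Dnmt3a, Hdac3, Hdac11, Kdm3a, Kdm5a, Kmt2c, Smarcb1 and Smarcd1 (edgeR adjusted p from 0.0510 to 0.198). Among these, Asxl2 moved from 0.70 to 0.39, Chd9 from 0.65 to 0.35, Kmt2c from 0.74 to 0.40 and Kdm3a from 0.43 to 0.28, while Kat6a, Kdm3b and Setd7 kept their calls at 0.46, 0.45 and 0.43. The 14 members called under all 16 alternatives were Chd3, Chd8, Kdm2a, Kdm4a, Kdm4c, Kdm5b, Kdm7a, Kmt2d, Kmt2e, Setd2 and Sirt2, which rose, and Chd5, Smarca2 and Smarcd3, which fell.

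In Eed cKO cells the same comparison of iOLs with OPCs called 7 members higher and 11 lower, beside 18.5% and 21.8% of all genes. The members' median was 0.0007, against −0.005 over all genes. Those that rose were Smarcd2, Kdm5b, Setd2, Kdm3b, Hdac1, Kdm4a and Chd8. Smarcd2 rose most, from 12.7, 10.2 and 14.6 CPM to 23.6 and 24.4 CPM (0.94 ± 0.16, edgeR adjusted p = 0.00158), and Kdm5b from 119, 116 and 104 CPM to 207 and 190 CPM (0.82 ± 0.11, edgeR adjusted p = 0.000367). Those that fell were Chd5, Hdac11, Asxl3, Chd3os, Chd7, Kat2a, Brd8, Smarcd3, Smarca2, Hdac10 and Brd9. Chd5 fell from 194, 158 and 123 CPM to 52.9 and 45.2 CPM (−1.69 ± 0.21, edgeR adjusted p = 0.000232). Hdac11, the class IV deacetylase gene, fell from 53.1, 51.8 and 52.8 CPM to 25.3 and 32.8 CPM (−0.85 ± 0.13, edgeR adjusted p = 0.000859). Of the 18, 6 were called under all 16 alternatives: Smarcd2, Kdm5b and Setd2, which rose, and Chd5, Hdac11 and Kat2a, which fell.

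Sirt2 did not pass the test in cKO cells, where it stood at 516, 505 and 434 CPM in OPCs and at 421 and 528 CPM in iOLs, with overlap, a log2 fold change of −0.03 ± 0.18 (edgeR adjusted p = 0.904). None of the 8 H3K4 methyltransferase genes passed in cKO cells, where Kmt2e stood at 150, 155 and 96.7 CPM in OPCs and 187 and 171 CPM in iOLs (0.42 ± 0.19, edgeR adjusted p = 0.108). Of the members called in either genotype, 16 were called in both, 7 of them higher and 9 lower. That is 34.0% of the 47 called in controls and 88.9% of the 18 called in cKO cells. The same overlap was not counted over all genes, of which 46.3% were called in controls and 40.3% in cKO cells. Whether the members share more calls than other genes is thus not known. No member was called in opposite directions. The groups have unequal sizes, and a call in controls without one in cKO cells does not show that the genotypes differ.

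**Figure D5:**
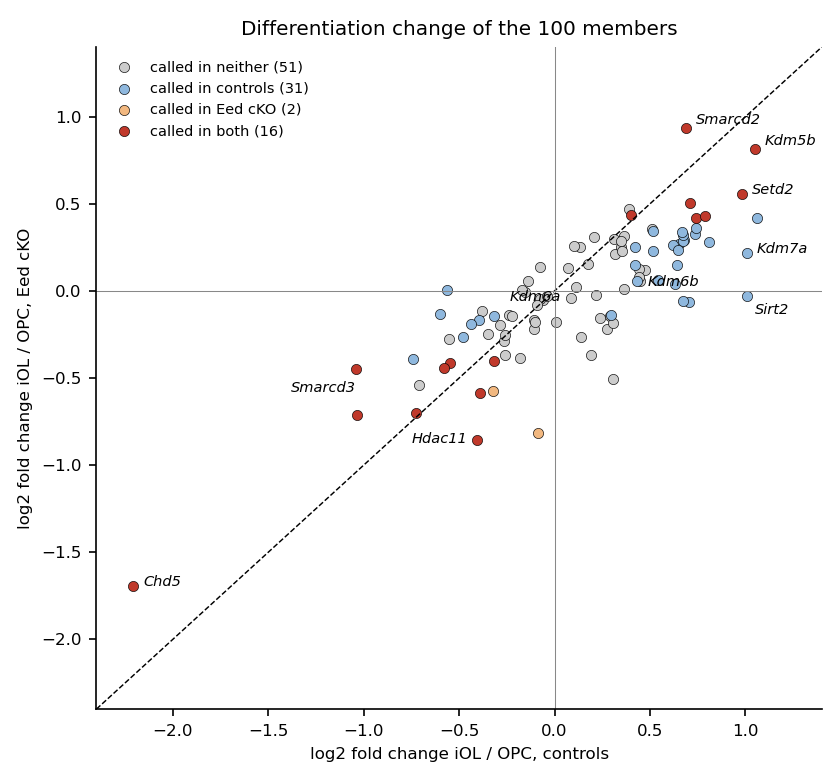
log2 fold change of iOLs over OPCs in controls (x axis) and in Eed cKO cells (y axis) for the 100 members, coloured by where they were called, with a dashed line where both are equal. Chd5 is low on both axes, Kdm5b and Smarcd2 are high on both, and Sirt2 is at 1.01 in controls and −0.03 in cKO cells.

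The difference between the stages in the effect of the Eed cKO, which equals the difference between the genotypes in the differentiation change, was tested in the same fit. No member passed edgeR's test, beside 0.945% of all genes higher and 0.886% lower. With no adjustment of p, 3 members were higher and 15 lower at the same threshold, beside 9.08% and 9.19% of all genes. DESeq2 called Chd3, Kdm7a and Sirt2 lower and no member higher, beside 3.52% and 2.80% of the genes it tested. The members' median was −0.12 and that of all genes 0.07. Sirt2 had the largest difference, at −1.04 ± 0.27, and did not pass (edgeR adjusted p = 0.0933). Its adjusted p ran from 0.00304 to 0.349 over 15 alternatives, 5 of which called it, among them the omission of OPC control replicate 1 at −1.31 ± 0.22 (edgeR adjusted p = 0.0309). Kdm7a and Chd3 differed by −0.79 ± 0.23 and −0.73 ± 0.21 (edgeR adjusted p = 0.116 and 0.111).

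Chromatin genes outside the naming rule, such as partner subunits of the same complexes, were counted in the same way over 98 measured genes. In cKO OPCs none passed edgeR's test, beside 2.94% of all genes higher and 0.303% lower. Before adjustment 16 were higher and 10 lower, beside 13.2% and 12.5% of all genes. DESeq2 called 4 higher, beside 5.66% of all genes. In cKO iOLs, beside 7.08% of all genes higher and 3.51% lower, 2 of the 98 were higher and none lower. These were Uhrf1, which recruits Dnmt1 to newly copied DNA, at 30.6 and 29.1 CPM in controls and 50.0 and 42.5 CPM in cKO iOLs (0.63 ± 0.13, edgeR adjusted p = 0.0174), and the methyl-CpG binding gene Mbd1, at 77.6 and 74.2 CPM against 114 and 116 CPM (0.60 ± 0.10, edgeR adjusted p = 0.00758). Uhrf1 lost its call under 3 of 16 alternatives and Mbd1 under 4, each the omission of an iOL library. The 4 cell cycle markers summed to 280 and 238 CPM in control iOLs and to 402 and 349 CPM in cKO iOLs, and their part in the Uhrf1 difference was not tested. Between stages 29 of the 98 rose and 18 fell in controls, beside 21.0% and 25.3% of all genes. In cKO cells 15 rose and 18 fell, beside 18.5% and 21.8% of all genes. Baz1a, a subunit of ISWI remodellers, rose from 8.67 and 11.6 CPM to 32.9 and 37.0 CPM in controls (1.78 ± 0.18) and by 1.45 ± 0.16 in cKO cells. Prmt8, an arginine methyltransferase gene, fell from 19.2 and 16.4 CPM to 3.81 and 3.22 CPM in controls (−2.34 ± 0.20, edgeR adjusted p = 3.08e-05). None of the 98 passed the difference of differences, beside 0.945% of all genes higher and 0.886% lower. Before adjustment 5 were higher and 10 lower, beside 9.08% and 9.19% of all genes. DESeq2 called 3 higher and 1 lower, beside 2.80% and 3.52% of the genes it tested.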

How the data were processed

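The values used are the reads counted for each gene by the authors, deposited as raw counts. Per the submitters' processing notes, the tools named are cutadapt 1.14, STAR 2.6.0 and featureCounts of Subread 1.6.2, with the build mm10. Per the labels' protocols, a stranded polyA kit or, under 100 ng of RNA, an amplifying kit was used, without naming the kit of each library. Each of the 13549 genes has at least 1 count in every library. A second header line was left out.

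The analysis ran in R 4.3.3, with edgeR 4.0.16 (TMM factors, a minimum count of 10, 4 group means over 9 libraries, quasi-likelihood test, Benjamini-Hochberg adjustment over all genes, calls under 0.05) and DESeq2 1.42.0. The common dispersion was 0.0265, with 5 residual degrees of freedom. Standard errors come from the F test: the log2 fold change in size, divided by the root of F. For values by postnatal day, a prior count of 2 was added before log2 CPM was taken. The fit was checked on simulated counts drawn with the fitted dispersions. They held no library that stood apart as a whole and no effect of postnatal day, so the check does not cover these. Alternatives were DESeq2, RLE factors, a fit of only the groups compared, a block for replicate number, a term for postnatal day, no filter, a filter of 1 CPM in 4 libraries and leaving out each library. The main filter kept all 13549 genes, so the fit with no filter equals the main fit, though it is counted among the alternatives.

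Named were Kdm6a, Kdm6b, every member called between genotypes, up to 12 called members each way per stage comparison, the member of most counts in each family, members with known roles in oligodendrocytes and called genes of the 98 others; Kdm5c, Kdm8, Hdac4 and other members outside that rule were named after their values were seen. Members, lists and tests were chosen with earlier results of these data known. The spans of 60 members overlap another RefSeq gene, among them Sirt2 (Gm19897), Kdm5b (Mgat4e) and Kdm6b (Gm51903), whose reads may not be separable.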

Additional observations from a re-analysis of the deposited data

How the results depend on the processing

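No result changed sign while called. RLE factors, no filter and the filter of at least 1 CPM in 4 libraries left the number of members called in each of the 5 comparisons within 1.5 times the value reported. The setting with no filter could not differ, because the main filter removed no gene. In the OPC genotype comparison (1 member), the count was 0 with only the groups compared, 16 with the replicate block, 5 with postnatal day as a term and 6 by DESeq2 (beside 1.4%, 14.3%, 10.2% and 7.42% of all genes), and 0 to 29 on leaving out a library, where the all-gene share called ran from 1.21% to 29%. In the iOL genotype comparison (3 members), it was 18, 6, 9 and 5 under the same settings (27.3%, 12.3%, 19.8% and 13.6%) and 1 to 10 on leaving out a library (2.58% to 16.5%). Between stages in controls (47) it was 22 with only the groups compared (31.8%) and 18 to 55 on leaving out a library (29.9% to 53.4%), and in cKO cells (18) it was 8 to 38 (22.7% to 50.8%). In the difference of differences (0) it was 5 with the replicate block, 2 with postnatal day as a term and 3 by DESeq2 (7.74%, 8.87% and 6.32%) and 0 to 21 on leaving out a library (0.0148% to 15.9%). The cause of these shifts was not tested. Deviations of same-numbered libraries correlated at −0.03 between OPC genotypes, 0.24 between iOL genotypes, 0.04 between control stages and −0.13 between cKO stages, over 2 shared numbers each. These values differ in sign and no label names a shared source, so whether the numbers pair the libraries was not settled, and the replicate block stands as an alternative. The order of members by level per length and the fit of only the groups compared for the difference of differences were not run. Groups of 2 limit the precision of every value, and a group cut to 1 library is assumed to vary like the others.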

Other observations

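Longer genes tended to have higher OPC differences when all 5 OPC libraries were used. Over the 100 members, the Spearman correlation between the genomic span of a gene and its cKO over control log2 fold change in OPCs was 0.628, and over the 13524 genes of the table with a span it was 0.387. The genes share the same 5 libraries, and no p is given. Both correlations include OPC control replicate 1, the library that stands apart, and were not computed without it or by postnatal day. Whether they come from Eed or from that library was not tested. The members had a median span of 45.7 kb, against 25.3 kb over these genes.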
